A study of Mus musculus with 72 samples.

Results

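Retinoic acid (RA) was given for 6 h to mouse acute promyelocytic leukaemia (APL) made by viral transduction of the PML/RARA fusion in a Pml wild type background, and bone marrow RNA of 8 treated arrays was compared with that of 4 untreated arrays. The members were chosen by their labels: model viral transduction, fusion PML/RARA, background WT, time 6 h, which gave 12 of the 72 arrays of the series. Earlier results of these data were known when the choice was made. Each of 2 batches, numbered 3 and 4 in the labels, held 2 untreated and 4 RA arrays. Untreated arrays 1 and 2 and RA arrays 1 to 4 were of batch 4, and untreated arrays 3 and 4 and RA arrays 5 to 8 of batch 3. All 12 arrays, controls included, came from leukaemias that carry the fusion, so nothing here is a comparison with normal marrow. The labels name the treatment only as retinoic acid, with no dose or route, and do not state which arrays derive from different mice or primary leukaemias, so p-values measure only the spread between these arrays. The study as a whole profiled 36 arrays of transgenic and 36 of virally transduced APL on Affymetrix Mouse Gene 1.0 ST arrays. The viral Pml null leukaemias at 6 h (4 untreated, 8 RA), the viral Pml wild type leukaemias at 12 h (2 untreated, 4 RA) and the transgenic PML/RARA leukaemias at 6 h (4 untreated, 8 RA) serve below to show where the 6 h response differed, and the viral ones among them also enter the estimate of the spread. They share no array with the 12.

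As background, PML/RARA joins the PML protein, the organiser of PML nuclear bodies, to the RA receptor alpha, and represses RA target genes in promyelocytes while disrupting the bodies. Retinoic acid binds the receptor part, turns the repressor into an activator and leads to degradation of the fusion, after which APL cells differentiate towards granulocytes. RA receptors act as heterodimers with RXR on direct repeats of a hexamer, and their best known direct targets are the enzyme that degrades RA and the RA receptors themselves. The title of the series places PML nuclear bodies and p53 at the centre of the question that the wild type and Pml null backgrounds address.

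The array values were log2 expression estimates per probe set, and 19938 genes with a single symbol were tested with limma on all 36 viral arrays, with batch as an additive term. The viral arrays outside the 12 thus share in each gene's residual variance, and a fit to the 12 arrays alone called 2099 genes, 1671 of them among the 1969 reported below. A gene was called at a Benjamini-Hochberg adjusted p below 0.05. The 12 arrays correlated at 0.974 to 0.997 with each other. The promyelocytic markers Mpo (13.33 ± 0.06 untreated, SD, n = 4; 13.29 ± 0.06 with RA, n = 8) and Elane (13.57 ± 0.09 and 13.66 ± 0.04) were near the top of the measured range of 2.6 to 14.24 on every array. None of the 10 B cell, 10 T and NK cell, 6 erythroid, 6 megakaryocyte and platelet or 9 stroma and endothelium markers was called. Of 10 eosinophil, basophil and mast cell markers Ms4a2, a chain of the IgE receptor, fell by 0.82 ± 0.15 with no overlap (6.06 to 6.48 untreated, 5.10 to 5.93 with RA), and Cpa3, a mast cell protease, had a change of -0.96 that was not called. Of 11 monocyte and macrophage markers F13a1 fell. These single calls were 10% and 9.09% of their lists, beside 9.88% of all genes. Single arrays differed too. Untreated array 2 had Cd79b at 10.17, Ms4a1 at 7.86 and Ebf1 at 8.43, against highest values of 8.07, 5.94 and 6.65 on the other 3 untreated arrays, and its Alas2 was at 8.79. Untreated array 3 had Alas2 at 8.98 and Fcgr4 at 8.81, and RA array 5 had the platelet gene Ppbp at 11.59 against 7.75 to 9.52 on the other RA arrays. The mean level of the B cell list ran from 7.0 to 8.36 over the untreated and from 6.79 to 7.55 over the RA arrays, and that of the erythroid list from 5.92 to 7.10 and from 6.04 to 6.53. In bulk marrow, fewer cells of a type and less RNA per cell cannot be told apart.

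RA arrays 5 and 6 stood apart from the other 6 RA arrays. Their response, described further on, was smaller in the median but uneven over genes, and markers of other cell types moved differently. The count of all called genes is given with and without these 2 arrays, and so are some lists and named genes. Other values cover all 8 RA arrays and can depend on these 2. Without them, p53 targets had 7 rises and 2 falls (6 and 1 with them) and cytokine genes 8 rises (5 with them). Fc gamma receptors had 3 rises both ways. The change of G0s2 went from 2.71 to 3.32 and that of Mir17hg from -0.70 to -0.94. Over all genes, RA arrays 5 and 6 lay a root mean square distance of 0.19 log2 units from each other. They lay 0.31 to 0.41 from the untreated arrays and 0.35 to 0.53 from the other RA arrays. Untreated arrays lay 0.19 to 0.27 apart, and the other RA arrays 0.34 to 0.49 from untreated. The other RA arrays lay 0.19 to 0.44 from each other, a range that overlaps their distance from arrays 5 and 6. Leaving both out ended the calls of 3 of the 104 named genes called, Ccne1, Bcl2l1 and Mir680-2. The codes in the sample titles place arrays 5 and 6 in one run with untreated array 3 and arrays 7 and 8 in a later run with untreated array 4, and the labels do not say what a run stands for.

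The promoters of Cyp26a1, which had the largest rise, and of Rarb, the RA receptor beta gene, whose change was small, are shown first, since both hold letters of the element that RA receptors are known to bind. Direct repeats of any 2 of the hexamers AGGTCA (the consensus), AGTTCA (in both repeats shown), GGGTCA (in neither) and GGTTCA (in that of Rarb) with a spacer of 1, 2 or 5 bases were searched on both strands of RefSeq promoter windows (GRCm38.p6, 250 bases before to 50 after a gene's start). Such a repeat was found in 193 of 32851 windows, or 0.588%, and one with a spacer of 5 bases in 32 windows, or 0.0974%. Of the 15 genes with the largest rises, 14 had a window, 18 windows in all, and only that of Cyp26a1 held a repeat. Among the named genes with a window, repeats were found in Cyp26a1, Rarb and the platelet gene Ppbp, which has 2 consensus hexamers with the spacer of 5 bases and was not called (log2 change -0.33, adjusted p = 0.805). The windows of Cyp26a1 (chr19:37697558-37697857, plus strand) and Rarb (chr14:16575427-16575726, minus strand, a gene of the fixed panel) are printed along the gene with the hexamers in capitals. In Cyp26a1 the repeat spans bases 219 to 235 of the window on the strand opposite to the gene, and in Rarb bases 198 to 214 on the gene's strand. Both have the spacer of 5 bases. A match is a description of these letters and not a measured binding site.
Cyp26a1: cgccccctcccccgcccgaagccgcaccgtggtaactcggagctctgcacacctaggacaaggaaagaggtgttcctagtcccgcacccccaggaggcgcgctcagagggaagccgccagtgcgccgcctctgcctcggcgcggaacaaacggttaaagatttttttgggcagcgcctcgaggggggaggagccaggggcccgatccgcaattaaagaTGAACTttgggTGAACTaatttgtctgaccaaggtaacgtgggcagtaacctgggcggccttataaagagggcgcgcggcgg
Rarb: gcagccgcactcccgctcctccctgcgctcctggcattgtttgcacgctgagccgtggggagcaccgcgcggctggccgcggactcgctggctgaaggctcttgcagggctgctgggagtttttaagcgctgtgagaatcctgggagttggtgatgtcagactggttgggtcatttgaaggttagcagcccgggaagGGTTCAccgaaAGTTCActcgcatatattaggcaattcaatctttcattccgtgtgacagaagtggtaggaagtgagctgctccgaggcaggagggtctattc

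RA changed 1969 of the 19938 genes at 6 h, 9.88% of those tested, of which 1084 (5.44%) rose and 885 (4.44%) fell. Of these, 709 genes (3.56%) passed 1.5-fold, made up of 422 rises and 287 falls, and 2-fold was passed by 178 rises and 60 falls. The untreated and RA values did not overlap in 1180 genes (5.92%). The split between rises and falls depended on the scaling, since quantile normalization of the deposited values gave 971 rises and 1207 falls, or 44.6% rises against 55.1%. Without RA arrays 5 and 6, the count was 2839, with 1485 rises and 1354 falls, and it held 1843 of the 1969. Leaving out untreated array 1 lowered the count to 1300.

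The largest rise was of the enzyme that breaks down RA. Cyp26a1, the cytochrome P450 that hydroxylates RA, read 5.64, 4.98, 5.30 and 5.64 on untreated arrays 1 to 4 and between 8.52 and 10.47 (median 10.15) on the RA arrays. Every RA array lay above every untreated array, and RA arrays 5 and 6 were the lowest of the 8, at 8.52 and 9.08. The log2 change was 4.50 ± 0.31 (SE), or 22.7-fold, with an adjusted p of 3.46e-12. Dhrs3, the reductase that turns retinal back into retinol, went from 9.58 to 10.01 untreated to 10.55 to 11.96 with RA, a log2 change of 1.48 ± 0.21 (adjusted p = 7.77e-06). Those were the 2 calls among 18 measured genes of retinoid metabolism and binding, 11.1% beside 9.88% of all genes. The median change of the list was 0.05, beside 0.03 for all genes. Neither of the other RA hydroxylases was called, with log2 changes of 0.04 for both Cyp26b1 and Cyp26c1. The same holds for the binding protein Crabp2, at 0.15.

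Of 12 measured retinoid receptors and cofactors, 6 rose and none fell, 50% called beside 9.88% of all genes. Rarg rose by 0.63 ± 0.19, Rara by 0.44 ± 0.11 (adjusted p = 0.00782), Ncoa3 by 0.40, Rxrb by 0.36, Ncoa1 by 0.31 and Rarb by 0.27 ± 0.08 (adjusted p = 0.0253). All of these were under 2-fold. Rara values ran from 8.78 to 9.20 untreated and from 9.13 to 9.68 with RA, so that the groups overlapped; whether its probes also read the fusion transcript was not tested. Rarb, whose promoter is printed above, was measured at 5.63, 5.70, 5.76 and 5.78 untreated and between 5.81 and 6.27 with RA. The number of calls in this list ran from 2 to 7 when single arrays were left out. Rarb and Ncoa3 each lost the call without any 1 of 4 single arrays. Neither was called in the limma fit to the 12 arrays alone (adjusted p = 0.0769 and 0.105).

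Of 17 RA-responsive genes outside retinoid metabolism, 5 rose, 29.4% called beside 9.88% of all genes. Hic1, a transcriptional repressor, rose by 2.96 ± 0.24 (7.77-fold), from 6.39 to 6.73 untreated to 8.88 to 10.01 with RA. Bhlhe40, a helix-loop-helix repressor, rose by 2.37 and Tgm2, the tissue transglutaminase, by 2.21 ± 0.27. Asb2, a ubiquitin ligase subunit induced by RA in human APL cells, rose by 1.08 and the adhesion molecule Icam1 by 0.47. The change of Asb2 was 0.23 on RA arrays 5 and 6 and 1.36 on the other 6. Tnfsf10, which encodes the death ligand TRAIL, changed by 0.38 and was not called.

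The remaining largest rises were of diverse function. Ccrl2, an atypical chemokine receptor, read 5.91, 6.59, 6.14 and 6.13 on untreated arrays 1 to 4 and 9.60 to 10.64 (median 10.47) with RA. That is 4.11 ± 0.21 on the log2 scale, 17.3-fold, with the smallest adjusted p of all genes, 1.17e-14. Suox, the mitochondrial sulfite oxidase, rose 16.3-fold, from 6.44 to 6.95 untreated to 9.29 to 11.28 with RA. In both genes every RA array lay more than 2 log2 units above the highest untreated array. The others of the 15 largest rises were P2rx7 (an ATP-gated channel, 2.79), Vat1 (2.75), Adssl1 (an adenylosuccinate synthase, 2.73), G0s2 (an inhibitor of triglyceride lipase, 2.71), Ehd1 (endocytic recycling, 2.62), Stard10 (lipid transfer, 2.49), Bcl3 (an atypical inhibitor of NF-kappa B, 2.41), Vdr, Nr4a1, Ocm and Fcgr4, described below.

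**Figure D1:**
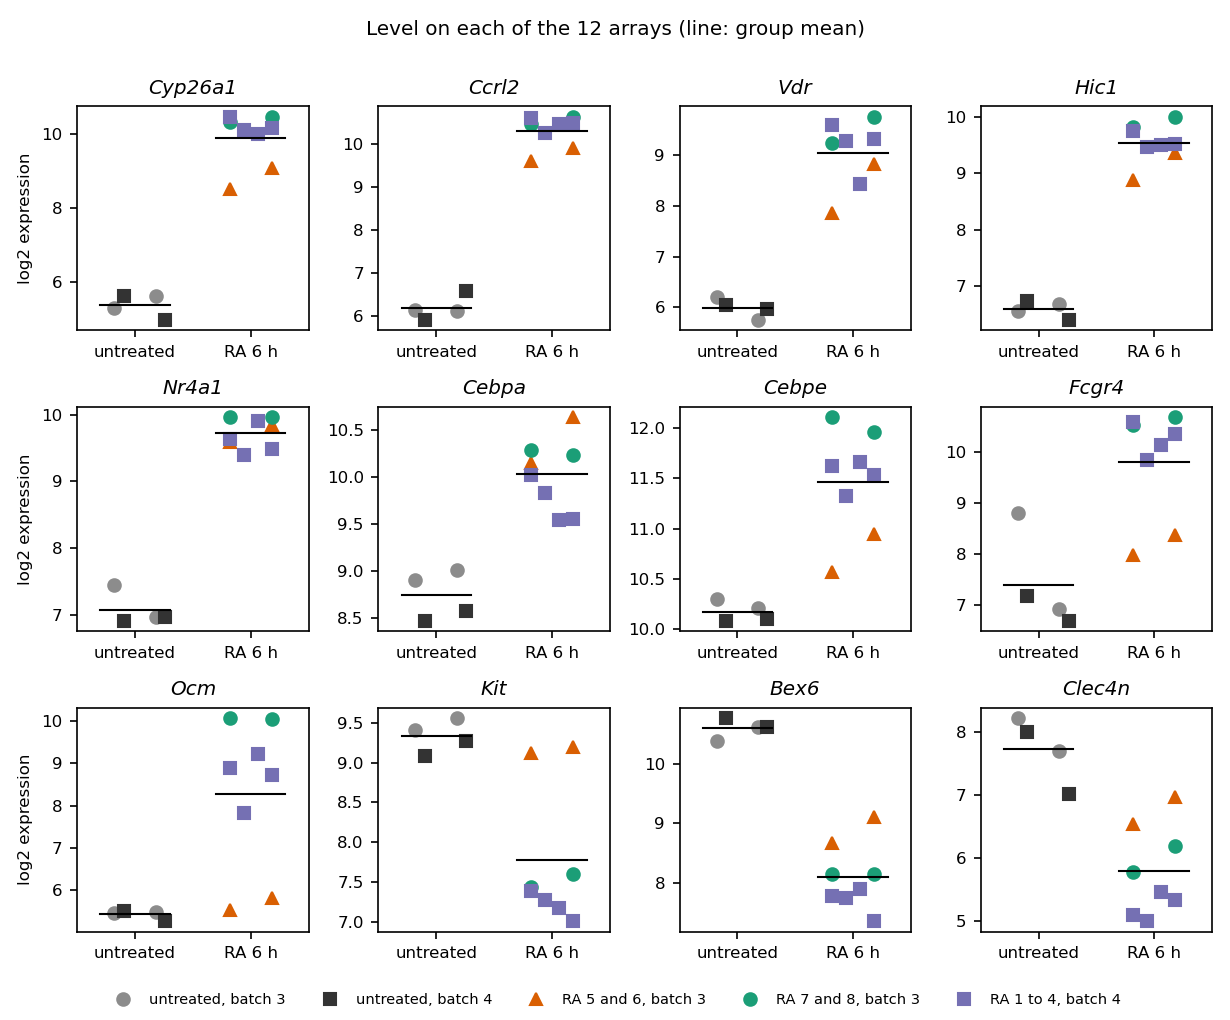
Log2 expression of 12 named genes on each of the 12 arrays, untreated on the left and RA for 6 h on the right of each panel, with a line at the group mean and symbols by batch and array. RA arrays 5 and 6 (orange triangles) lie with the other RA arrays for Nr4a1 and Cebpa, between the groups for Cebpe and near the untreated arrays for Ocm (5.54 and 5.82) and Kit (9.12 and 9.19).

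Transcription factors of the granulocyte and myeloid programme were the list with most calls: 11 of 23 rose and 3 fell, 60.9% beside 9.88% of all genes. The lists were chosen with earlier results of these data known, so this rank tests nothing. Vdr, the vitamin D receptor, rose by 3.06 ± 0.33 from 5.74 to 6.20 untreated to 7.86 to 9.77 with RA. Nr4a1, an orphan nuclear receptor of the immediate early class, rose by 2.64 ± 0.19 (adjusted p = 2.01e-11), with 9.39 to 9.96 on the RA arrays against 6.92, 6.98, 6.98 and 7.45 untreated. Among the CCAAT/enhancer binding proteins, Cebpa rose by 1.29 ± 0.11, Cebpe, required for the late steps of granulocyte maturation, by 1.29 ± 0.20 and Cebpb by 1.00 ± 0.09, while Cebpd fell by 0.80 on the log2 scale. The groups of arrays did not overlap for Cebpa (8.47 to 9.01 and 9.54 to 10.64) or for Cebpe (10.08 to 10.30 and 10.57 to 12.11). For Cebpe, RA arrays 5 and 6, at 10.57 and 10.95, lay between the untreated and the other RA arrays. Without those 2 arrays the change of Cebpe was 1.575.

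Id1, which blocks helix-loop-helix factors, rose by 1.95, the AP-1 repressor Jdp2 by 1.62, Irf1 by 1.51, Gfi1b by 1.17 and Spi1, the master factor PU.1, by 0.49. For Gfi1b, RA arrays 5 and 6 lay inside the untreated range, with a change of 0.04 against 1.55 on the other 6. Runx1 fell by 0.45 and Id2 by 0.67 on the log2 scale. Gfi1, Irf8 and Klf4 changed by -0.19, 0.19 and -0.29 without a call. The median of the list was 0.22, and 0.42 without RA arrays 5 and 6, with the same 11 and 3 calls in number.

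**Figure D2:**
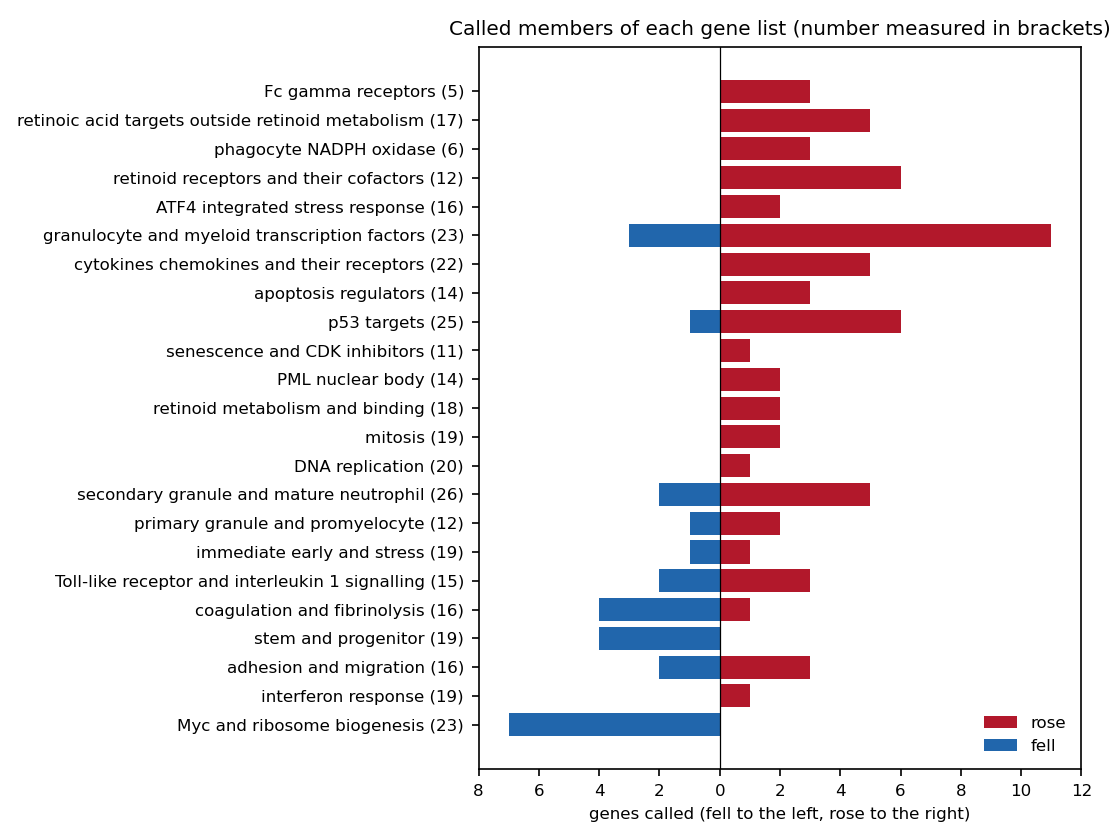
Number of genes called in each of 23 gene lists, with members that fell to the left and members that rose to the right of 0, ordered by the median log2 change and with the number measured in brackets. Myeloid transcription factors had 11 rises and 3 falls, and Myc and ribosome biogenesis had 7 falls and no rise. The lists were chosen with earlier results of these data known, so their order tests nothing.

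Effector genes of mature phagocytes rose in part, with 50% of the NADPH oxidase and 60% of the Fc gamma receptor list called, beside 9.88% of all genes. Of the 6 measured NADPH oxidase genes, Ncf1 (the p47phox subunit) rose by 2.14 ± 0.37, Ncf4 (p40phox) by 0.93 and Rac2 by 0.39, while the membrane subunits Cybb (0.27) and Cyba (0.10) were not called. Ncf1 read 10.02 to 10.79 untreated and 11.45 to 13.07 with RA. Of 5 Fc gamma receptor genes, 3 rose: Fcgr4 by 2.40 ± 0.50 (adjusted p = 0.00146), Fcgr3 by 1.11 and the inhibitory Fcgr2b by 0.41. For Fcgr4 the groups overlapped, with 7.19, 6.70, 8.81 and 6.93 on untreated arrays 1 to 4 and 7.98 to 10.68 with RA. RA arrays 5 and 6, at 7.98 and 8.37, lay below untreated array 3, and without them the change was 3.06.

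Granule genes did not move as a group, though 26.9% of the secondary and 25% of the primary granule list were called, beside 9.88% of all genes. Of 26 genes of secondary granules and mature neutrophils, 5 rose (Mmp9 by 1.48, Pram1 by 1.34, Mmp25 by 1.07, Cd14 by 0.98 and Trem1 by 0.74) and 2 fell (Mmp8 by 0.85 and Csf3r, the G-CSF receptor, by 0.83), and the median was -0.04. RA arrays 5 and 6 lay inside the untreated range for Mmp9, Pram1 and Mmp25. The changes there were 48.9%, 26.1% and 16.9% of those on the other 6 RA arrays. The secondary granule proteins Ltf, Lcn2, Camp and Ngp changed by -0.29, 0.08, -0.02 and 0.09, none of them called. Ly6g, a surface antigen of mouse neutrophils, was higher by 1.60 ± 0.55 but missed the threshold (adjusted p = 0.0605). Among 12 primary granule genes Prtn3 rose by 0.66, Gstm1 by 0.32, and Ctsc fell by 0.60. When single arrays were left out, 0 to 6 of the 12 were called. Prtn3 lost its call without untreated array 1 or 3, Gstm1 without untreated array 1 and Ctsc without any 1 of 7 single arrays. Mpo and Elane, with log2 changes of -0.05 and 0.08, were not called.

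Of 16 adhesion genes, the integrin Itgb2 (0.93), Icam1 and the complement receptor C5ar1 (1.17 ± 0.23) rose, and Pecam1 and Cd44 fell by 0.67 and 0.41. Itgam, the CD11b chain used as a marker of maturation, was measured at 11.21 ± 0.26 (SD, n = 4) untreated and 11.38 ± 0.29 (n = 8) with RA and was not called. Of 22 cytokine and chemokine genes 5 rose, led by Ccrl2 and followed by the chemokines Ccl9 (1.44) and Ccl6 (1.16), Il1a (1.21) and the receptor chain Csf2rb (0.31). In Toll-like and interleukin 1 signalling, 15 genes measured, the kinase Irak2 rose by 2.31, the inhibitor Nfkbia by 1.5 and Irak3 by 0.25, whereas Tlr2 and Tnfaip3 fell by 0.97 and 0.52. Called genes were 31.2% of the adhesion, 22.7% of the cytokine and 33.3% of the Toll-like and interleukin 1 list, beside 9.88% of all genes.

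The largest falls were smaller than the largest rises. Bex6 had the largest, from 10.77, 10.62, 10.38 and 10.62 on untreated arrays 1 to 4 to between 7.36 and 9.11 with RA. The groups did not overlap, and the log2 change was -2.48 ± 0.35 (adjusted p = 5.87e-06). Kcnj2, an inward rectifier potassium channel, fell by 2.18, Clec4n, the receptor Dectin-2, by 1.94, St8sia4, a polysialyltransferase, by 1.81, Steap4, a metalloreductase, by 1.79 and Arg2, the mitochondrial arginase, by 1.75. The others of the 15 were Tmem178, Ms4a4c, Stfa3, Kit, Serpinb10, P2ry13 (an ADP receptor), Klra17, Nt5e (the ectonucleotidase CD73) and Dctd, with log2 changes between -1.72 and -1.45. Serpinb10 and Klra17 lost their calls when untreated array 1 or 2, both of batch 4, was left out. These arrays read 10.8 and 10.8 for Serpinb10 and 8.10 and 8.22 for Klra17. The changes in batches 3 and 4 were -1.10 and -1.98 for Serpinb10 and -0.56 and -2.43 for Klra17. Of these 2 arrays only array 2 had high B cell and erythroid markers, whose part in this was not tested.

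Of 19 stem and progenitor genes none rose and 4 fell, 21.1% called beside 9.88% of all genes. Kit, the stem cell factor receptor, read 9.08, 9.27, 9.41 and 9.56 untreated. Its RA values were 7.01 to 7.61 on 6 arrays and 9.12 and 9.19 on RA arrays 5 and 6, which lay inside the untreated range. The log2 change was -1.55 ± 0.30 (adjusted p = 0.000519) over all 8 arrays and -1.99 without those 2. Erg fell by 0.81, Cd48 by 0.61 and Myb by 0.44. Erg lost its call without untreated array 3 or 4, Cd48 without any 1 of 7 single arrays and Myb without untreated array 2. Cd34 (-0.49), Gata2 (-0.52), Meis1 (-0.04) and Hoxa9 (-0.02) were not called.

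Genes of Myc and ribosome biogenesis were lower: 22 of the 23 measured had a negative change, 7 passed the test and the median was -0.52, against 0.03 for all genes. Over all genes, 8066 of 19938 had a negative change and 9.88% were called, beside 30.4% of this list. Myc fell by 0.92 ± 0.26 (adjusted p = 0.0214), with 11.65 to 11.89 untreated and 10.35 to 11.34 with RA, and lost its call without untreated array 1 or 2. Gnl3 fell by 1.04, Nop56 by 0.68, Nolc1 by 0.65, Nop2 by 0.62, Dkc1 by 0.59 and Cad by 0.58. The list's change was unequal over the RA arrays. Over RA arrays 5 and 6 the list's median change against the untreated arrays of their batch was 0.03, over the other 6 it was -0.69, and without those 2 arrays 16 of 23 genes were called. Nop56 shows it, with 10.99 to 11.59 untreated, 10.00 to 10.51 on 6 RA arrays and 11.41 and 11.24 on arrays 5 and 6. Gnl3 changed by 0.10 on arrays 5 and 6 and by -1.43 on the other 6. Between 2 and 13 of the 23 were called when single arrays were left out.

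Of 300 microRNA genes measured, 7 were called, 4 up and 3 down, a smaller share than the 9.88% of all genes. The 3 falls include the host transcript Mir17hg, which was counted by its symbol. The array reads precursor or host transcripts, not mature microRNAs. The fall of most size lay in the Mir17 to Mir92a-1 cluster on chromosome 14, whose host gene is known in mammals as a target of Myc. Mir18 fell by 1.23 ± 0.36 (adjusted p = 0.0222), from 6.42, 6.98, 6.96 and 7.37 untreated to 4.87 to 5.75 on 6 RA arrays and 7.32 and 7.27 on RA arrays 5 and 6, without which the change was -1.68. The host transcript Mir17hg fell by 0.70. Mir19a had a log2 change of -0.77 that was not called (adjusted p = 0.113), and Mir17 (0.30), Mir20a (0.01) and Mir19b-1 (0.12) were not called either. Mature sequences of the cluster (RefSeq, GRCm38.p6) follow, with the seed, bases 2 to 8, in capitals, to show that Mir17 and Mir20a share 1 seed, that of Mir18 differs from it, and Mir19a and Mir19b-1 share another.
miR-17-5p: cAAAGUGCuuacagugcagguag
miR-20a-5p: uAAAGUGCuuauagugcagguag
miR-18a-5p: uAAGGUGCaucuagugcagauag
miR-19a-3p: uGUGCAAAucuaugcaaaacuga
miR-19b-3p: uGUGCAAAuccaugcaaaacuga
Mir365-1 also fell, by 0.31, and Mir148b, Mir323, Mir668 and Mir680-2 rose by 0.23 to 0.37. All 7 calls were lost when some single array was left out, and that of Mir680-2 also without RA arrays 5 and 6 (adjusted p = 0.0795).

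Of 14 PML nuclear body genes 2 were called, 14.3% beside 9.88% of all genes, with a median change of 0.06. Pml rose by 0.53 ± 0.13 (adjusted p = 0.00737) and the kinase Hipk2 by 0.37. Sp100 and Daxx, which reside in the bodies, changed by -0.06 and 0.03. For Pml the untreated arrays spanned 9.20 to 9.41 and 6 RA arrays 9.76 to 10.23, with RA arrays 5 and 6 at 9.28 and 9.59, without which the change was 0.70.

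Of 25 measured p53 target genes, 6 rose and 1 fell, 28% beside 9.88% of all genes, with a median change of 0.06. The rises were Plk3 (1.16), Pmaip1 (the BH3-only protein Noxa, 0.64 ± 0.11), Gadd45a (0.62), Trp53inp1 (0.39), Mdm2 (the p53 ubiquitin ligase, 0.37 ± 0.08) and Ddb2 (0.26), and Xpc fell by 0.53. Pmaip1 read 7.57 to 7.79 untreated and 8.13 to 8.49 with RA, with no overlap. Mdm2 read 9.54, 9.56, 9.68 and 9.90 untreated and 9.89 to 10.16 with RA, where the groups just overlapped. Bbc3 (0.04), Ccng1 (-0.14), Sesn1 (0.12), Perp (-0.29) and Zmat3 (-0.27) were not called. When single arrays were left out, 5 to 9 of the 25 were called.

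Among 11 senescence and CDK inhibitor genes only Cdkn2d, the p19 INK4 inhibitor, was called, 9.09% beside 9.88% of all genes. Cdkn2d rose by 1.63 ± 0.19, from 7.10 to 7.70 untreated to 9.0 to 9.22 with RA, alike on all 8 arrays. Cdkn2a changed by 0.06 and Cdkn1b by 0.14. Apoptosis regulators had 3 rises in 14 (21.4%), Bmf (0.62), Bak1 (0.53) and Bcl2l1 (0.29). Bcl2l1 lost its call without any 1 of the 4 untreated arrays and without RA arrays 5 and 6 (0.22, adjusted p = 0.0798). In the cell cycle lists Ccne1 (0.61) was the 1 call among 20 replication genes (5%). It read 10.31 and 10.33 on RA arrays 5 and 6, 9.21 to 9.92 on the other 6 and 8.77 to 9.44 untreated, and lost its call without those 2 arrays (0.45, adjusted p = 0.0730) and without untreated array 1 or 3. Aurka and Bub1b (0.29 each) were the 2 calls among 19 mitotic genes (10.5%), and Aurka lost its call without any 1 of 8 single arrays.

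Of 19 interferon response genes only Oasl1 rose (0.68), and the list's median was -0.14. The median was -0.54 over RA arrays 5 and 6 and -0.01 over the other 6. Of 16 genes of the integrated stress response 2 rose, Ddit4 by 2.12 and Ddit3, which encodes CHOP, by 1.17 ± 0.14, while Atf4 itself (0.21) was not called. In the immediate early list Klf2 rose by 0.82 and Fosl2 fell by 0.59, with Fos at -0.13 and Egr1 at 0.68 not called. Calls made up 5.26% of the interferon, 12.5% of the integrated stress and 10.5% of the immediate early list, beside 9.88% of all genes. In coagulation, which APL disturbs in patients, tissue factor F3 rose by 1.77 ± 0.36, from 5.29 to 5.34 untreated to 5.62 to 8.42 with RA, and by 2.24 without RA arrays 5 and 6. Serpinb2, F13a1, S100a10 and Anxa2 fell by 1.30, 0.85, 0.40 and 0.28. Called genes were 31.2% of the 16 in the coagulation list, beside 9.88% of all genes. Annexin A2 and S100a10 form the cell surface receptor for plasminogen and its activator.

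The response was not of 1 size on the 8 RA arrays. For each RA array, the change against the untreated arrays of its batch was set against the mean change of the other 7 over the 709 genes of at least 1.5-fold, and the slope was taken as the size of its response. Slopes were 1.16, 1.07, 1.04 and 1.15 on RA arrays 1 to 4, 0.583 and 0.700 on arrays 5 and 6, and 1.12 and 1.13 on arrays 7 and 8. Even on arrays 5 and 6, 93.9% and 96.8% of the 709 genes moved in the direction of the others. The 709 genes were chosen with these arrays, so these values describe them and test nothing.

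**Figure D3:**
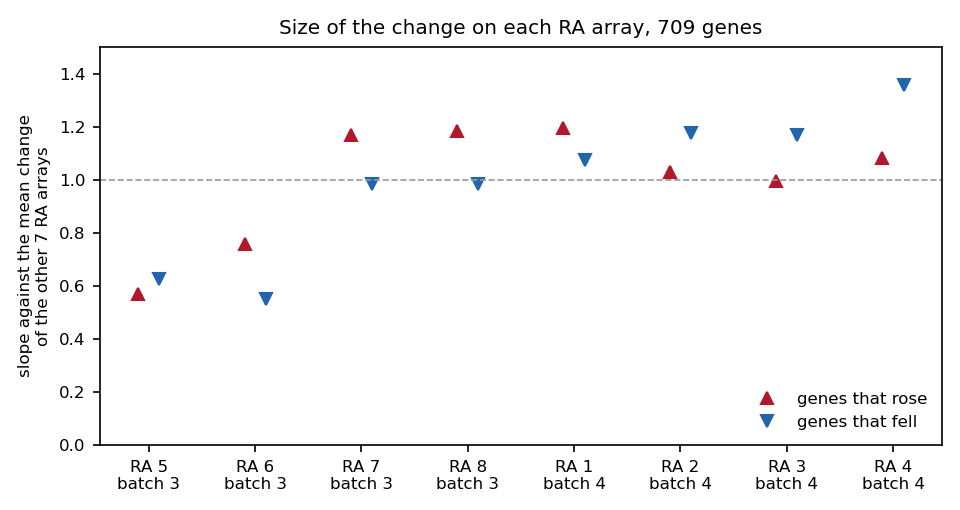
Slope of each RA array's log2 change on the mean change of the other 7 RA arrays, over the 709 called genes of at least 1.5-fold, drawn for genes that rose (upward triangles) and fell (downward triangles); 1 is the size of the other arrays' change. For genes that rose, RA array 5 lies at 0.569 and RA array 6 at 0.756, and the other 6 lie between 0.984 and 1.36 for both kinds.

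The smaller response of RA arrays 5 and 6 was uneven over genes. Over the 238 called genes of at least 2-fold, their mean change was a median of 60.4% of that of the other 6 arrays. It was under 25% in 30 genes and at least 75% in 93 genes, 44 of which had at least the full change. Both arrays lay inside the untreated range in 15 genes. Among the named genes under 25% were Ocm, a calcium-binding parvalbumin (0.19 against 3.70), Fcgr4 (0.30 against 3.10), P2rx7 (0.84 against 3.44), Kit (-0.33 against -1.96), Tmem178 (-0.31 against -2.19) and Dctd (-0.23 against -1.85). Those with close to or over the full change were Nr4a1 (2.50 against 2.69), Bhlhe40 (2.30 against 2.39), Irf1 (1.46 against 1.53), Id1 (2.38 against 1.80), Cebpa (1.44 against 1.25), Cdkn2d (1.72 against 1.60), Ddit3 (1.13 against 1.18), St8sia4 (-1.76 against -1.83), P2ry13 (-1.98 against -1.35) and Kcnj2 (-2.83 against -1.96). The called genes of retinoid metabolism were in between, with Cyp26a1 at 68.1% and Dhrs3 at 58.2%, and so was Cebpe at 32.3%. Markers of other cell types moved with these arrays as well. The median change of the 11 monocyte and macrophage markers was 0.29 on RA arrays 5 and 6 and -0.35 on the other 6, that of the 6 megakaryocyte and platelet markers 0.33 and -0.24, and that of the 9 stroma and endothelium markers 0.48 and -0.16; their part in the smaller response was not tested.

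**Figure D4:**
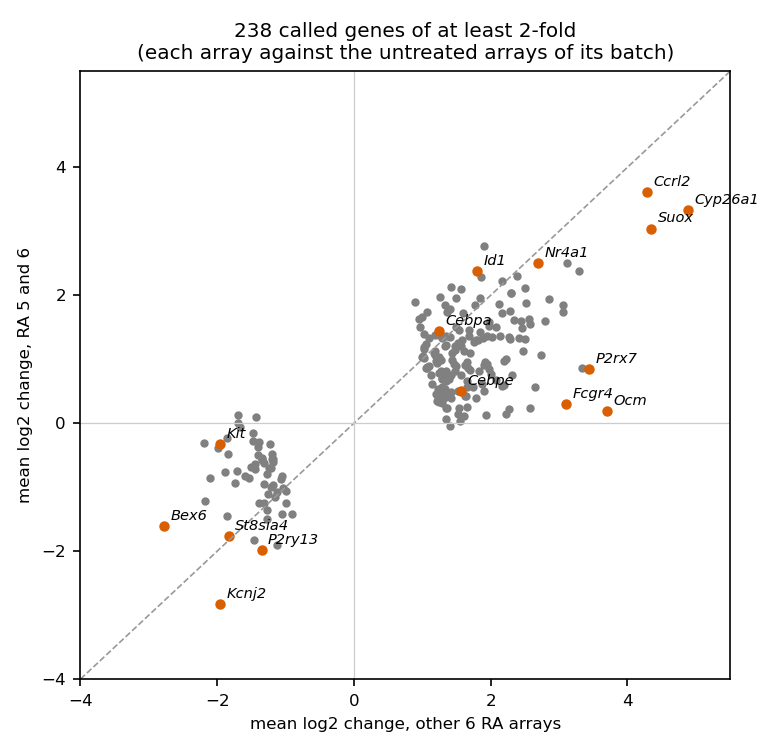
Mean log2 change on RA arrays 5 and 6 (vertical axis) against that on the other 6 RA arrays (horizontal axis), each against the untreated arrays of the same batch, for the 238 called genes of at least 2-fold; the dashed line marks equal change. Nr4a1, St8sia4 and Id1 lie on or beyond the line, and Ocm, Fcgr4 and Kit lie close to no change on arrays 5 and 6.

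The 2 batches were balanced, so the batch term left the estimates unchanged. All 1969 called genes changed in the same direction in both batches, but the same arrays made the calls, so this tests nothing. Within batch 3, which holds RA arrays 5 and 6, 394 genes were called (315 up, 79 down), and within batch 4 there were 1025 (520 up, 505 down), with 311 in both. The difference in RA effect between batches was called in no gene (0%), with 628 genes at an unadjusted p below 0.05. All of the 15 largest rises were larger in batch 4 than in batch 3, whose values include RA arrays 5 and 6, by unequal amounts. Nr4a1 rose by 2.62 in batch 3 and 2.66 in batch 4, Ccrl2 by 4.02 and 4.21 and Cyp26a1 by 4.13 and 4.88. The changes in batches 3 and 4 were 2.37 and 3.27 for Ocm, 2.17 and 3.25 for G0s2, 2.16 and 3.42 for P2rx7 and 1.52 and 3.28 for Fcgr4, and -1.14 and -1.96 for Kit.

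At 12 h, in separate leukaemia arrays of batch 3, 1217 genes were called (6.1%) and the difference between the 12 h and 6 h effects was called in none (0%), with 298 genes at an unadjusted p below 0.05. Of the 1969 genes called at 6 h, 969 were called at 12 h, 49.2% of the 6 h and 79.6% of the 12 h calls, all in the same direction. Cyp26a1 changed by 4.96 at 12 h, Hic1 by 3.08, Ccrl2 by 4.05, Vdr by 2.84, Cebpe by 1.25, Kit by -1.44 and Myc by -1.41. At 6 h the change of Myc was -0.92, and for none of these genes was the difference between the times called. The 12 h arrays were also of unlike kinds: RA arrays 5 and 6 lay 0.22 to 0.32 from 12 h RA arrays 3 and 4 and 0.39 to 0.41 from 12 h RA arrays 1 and 2, while RA arrays 7 and 8 lay 0.24 to 0.28 from 12 h RA arrays 1 and 2.

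In Pml null leukaemias RA called 2263 genes at 6 h (11.4%), and 1060 were shared with the wild type, 53.8% of the wild type and 46.8% of the null calls, 3 of them in opposite directions. The test of the difference between backgrounds called 71 genes (0.356%), 20 with a higher and 51 with a lower change in the wild type, of which 43 were themselves called in the wild type. The count was 195 without RA arrays 5 and 6. It was 32, 41 and 39 without untreated array 1, 2 or 3, and 38 and 41 without Pml null untreated array 2 or 4. Pml itself read 9.32 ± 0.09 (SD, n = 4) in untreated wild type and 9.27 ± 0.19 (n = 4) in untreated null leukaemias. Where its probes lie relative to the deleted part is not given in the sources used here, so this level is no check of the null label.

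Nr4a1 had the smallest adjusted p of this comparison: it rose by 2.64 in wild type, from 7.08 ± 0.25 to 9.72 ± 0.22, and changed by 0.31 ± 0.19 in null, from 6.71 ± 0.29 to 7.01 ± 0.29. The difference was 2.33 ± 0.28 (adjusted p = 2.89e-05), and the call was kept without any single array of the 4 groups. Vdr rose by 3.06 in wild type and changed by 0.62 in null, a difference of 2.44 (adjusted p = 0.0104), and Vat1 rose by 2.75 and 1.38, a difference of 1.36 (adjusted p = 0.0251) that lost its call without untreated array 1 or 2 or Pml null untreated array 3. Irf1, Jdp2, Spi1 and Gfi1b rose in both backgrounds and less in wild type, by differences of -0.65, -0.87, -0.61 and -1.75, and for Gfi1b the call was lost without any 1 of 15 single arrays. RA-degrading Cyp26a1 rose by 5.10 in null, Hic1 by 3.09 and Cebpa by 1.37, and for none of them was the difference called. Cebpe rose by 1.29 in wild type and changed by 0.40 in null, where it was not called, but the difference of 0.89 was not called either (adjusted p = 0.289).

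For several of the genes that differed, the untreated levels of the 2 backgrounds were unequal as well. Clec4n fell by 1.94 in wild type from 7.73 ± 0.52 to 5.79 ± 0.71, while in null it read 4.98 ± 0.26 untreated and 4.77 ± 0.15 with RA. Steap4 went from 9.26 ± 0.38 to 7.47 ± 0.45 in wild type and read 6.60 ± 0.22 untreated and 6.47 ± 0.17 with RA in null. Arg2 went from 9.23 ± 0.32 to 7.47 ± 0.48 in wild type and was 6.43 ± 0.48 untreated and 7.08 ± 0.59 with RA in null. P2ry13, Tlr2 and Serpinb2 had the same order, each higher untreated in wild type than in null (9.44, 9.39 and 7.27 against 6.64, 7.20 and 5.98). The reverse was seen for Cd40lg, Wee2 and Lurap1l, which were not called in wild type and fell by 1.95, 1.52 and 1.22 in null, from untreated levels of 8.36, 5.85 and 9.31 in null against 5.12, 4.21 and 5.52 in wild type. Tent5c and Ttyh2 rose by 2.47 and 2.76 in null and were not called in wild type. Untreated levels of Tent5c were 6.53 ± 0.81 in null and 6.98 ± 1.00 in wild type, where they ran from 6.02 to 8.15, and those of Ttyh2 were 7.74 ± 0.40 and 8.35 ± 0.22. The calls of Lurap1l, Tent5c and Ttyh2 were lost without 17, 14 and 6 single arrays in turn. The 11 monocyte and macrophage markers had a median change of -0.25 in wild type, with 1 fall, and of -0.14 in null, with no call, and their part in these differences was not tested.

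**Figure D5:**
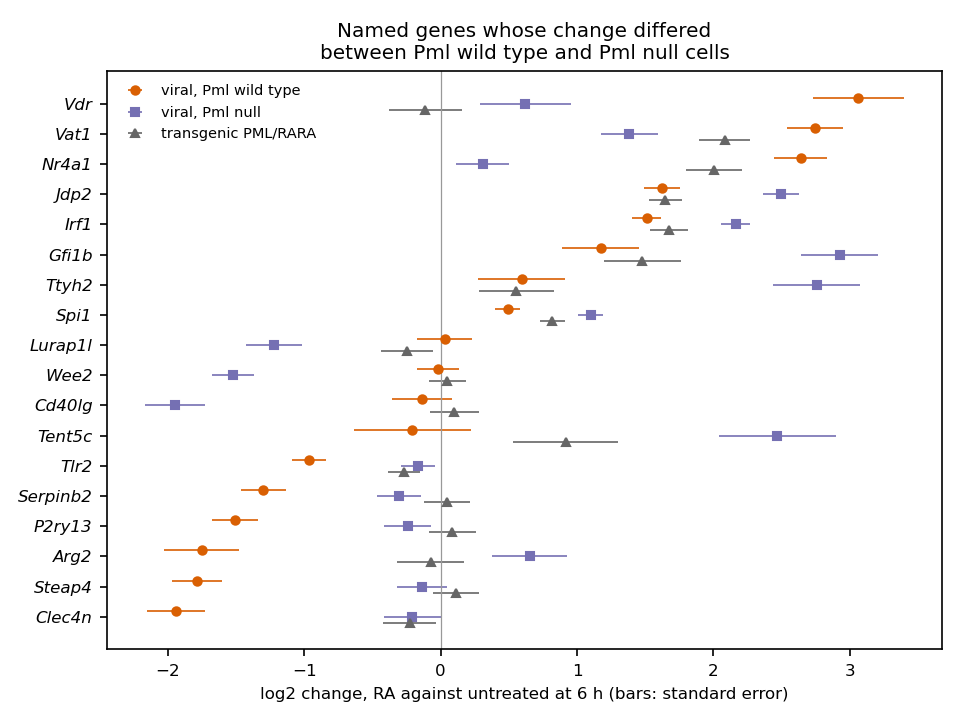
Log2 change after 6 h of RA, with its standard error, in viral Pml wild type (circles), viral Pml null (squares) and transgenic PML/RARA leukaemias (triangles) for the 18 named genes whose change differed between wild type and null. Nr4a1 rose by 2.64 in viral wild type and 2.00 in transgenic leukaemias against 0.31 in null, whereas Clec4n, Steap4 and P2ry13 lie near 0 in both other leukaemias.

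Against transgenic PML/RARA leukaemias at 6 h, where 2486 genes were called (12.5%), 994 genes were shared, 50.5% of the viral wild type and 40.0% of the transgenic calls, 5 of them in opposite directions. The difference between the models was called in 221 genes (1.11%), 128 with a higher and 93 with a lower change in viral wild type. It was called in 86 genes without transgenic untreated array 4, in 137 without transgenic untreated array 3 and in 137, 139 and 138 without viral untreated array 1, 2 or 3. The models share no batch, so the model and the batch cannot be told apart in levels, and each effect was taken within its model. Vdr had the largest difference among the named genes, with a rise of 3.06 in viral wild type and a change of -0.11 in transgenic leukaemias (difference 3.17 ± 0.37, adjusted p = 8.66e-08). P2rx7 and Snai3 followed, with 2.79 and 2.13 against 0.58 and 0.21, and Ccrl2 rose in both, by 4.11 and 2.24. The changes of H60b and Filip1 were higher in viral wild type by 1.78 and 1.65, the latter lost without any 1 of 18 single arrays. Rarg rose less in viral wild type, by 0.63 against 1.62 (adjusted p = 0.0190). Pml rose less in viral wild type, by 0.53 against 1.18 (difference -0.65, adjusted p = 0.0499).

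Of the genes called in viral wild type, 24 differed in 1 direction from both the Pml null and the transgenic leukaemias, 16 of which fell and 8 rose. Both differences and the call use the same 12 viral wild type arrays, so they are not independent of each other. They include the C-type lectin receptors Clec4n and Clec7a (Dectin-1), Tlr2, P2ry13, Arg2, Steap4, Serpinb2, Tnfsf8 and St8sia1 among the falls, and Vdr, Cd274 (PD-L1), Raet1d and Hivep1 among the rises. Clec7a and the others not in the named set were chosen here after their values were seen. Clec7a fell by 1.16 and Cd274 rose by 1.20. In transgenic leukaemias Clec4n (5.04 ± 0.17 untreated), Steap4 (6.50 ± 0.14) and Arg2 (6.46 ± 0.25) were at levels like those in Pml null, on arrays of other batches. Nr4a1 was not in this set: it rose by 2.00 ± 0.20 in transgenic leukaemias, a difference of 0.63 from viral wild type that was not called.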

How the data were processed

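Total RNA from bone marrow was hybridised to Affymetrix Mouse Gene 1.0 ST arrays, per the labels. The deposited values are log2 expression estimates made by the authors with RMA and the affy package, per the submitters' processing notes. Software versions and steps beyond RMA: not given in the sources used here. Precision is limited by the number of arrays (median residual SD over genes 0.153).

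Of 35556 probe sets, 21789 carry exactly 1 symbol in the platform's annotation, 1621 carry several and 12146 are not listed. For the 999 genes with several probe sets the one of highest average over all 72 arrays was kept, which gave 19938 genes with no filter on signal. limma 3.58.1 in R 4.3.3 (tables read with version 1.17.8 of data.table) was fitted to the 36 viral arrays with a mean for each group and batch added as a factor (27 residual degrees of freedom), followed by eBayes; tests were two-sided, with Benjamini-Hochberg adjustment over all genes. The comparison with transgenic leukaemias used all 72 arrays, and that between batches a coefficient for each group and batch. The scripts were tested on simulated data.

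Groups were taken from the labels. There were 31 gene lists with 486 genes, of which 439 were measured and the rest not analysed here. The members and the lists were chosen with earlier results of these data known. Named genes were the 15 largest called rises and falls (without predicted, clone-named, histone and olfactory genes), up to 4 genes of each list by size of t, a fixed panel, the 6 largest called differences in each direction and called microRNAs. Other members of a list appear where its counts are described. Alternatives changed the scaling, signal filter, probe set choice, prior, arrays and batch handling. RA arrays 5 and 6 were left out, and runs of title codes used as a block, after the data were seen.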

Additional observations from a re-analysis of the deposited data

Results flagged for a closer look

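In 14 of 332 groups of 4 or 8 arrays of a named or marker gene, 1 array lay far from the others by Dixon's criterion, which chance alone meets in about 1 group in 20. These arrays had Ocm at 5.27 on untreated array 2 (others 5.48 to 5.52), Nr4a1 at 7.45 on untreated array 3 (others 6.92 to 6.98), Ncf4 at 10.56 on untreated array 4 (others 10.69 to 10.69), Tnfaip3 at 7.93 on RA array 3 (others 7.39 to 7.58) and Erg at 8.06 on RA array 2 (others 8.34 to 8.58). Further single values were Hipk2 at 10.51 on untreated array 2 (others 10.22 to 10.25), Hipk2 at 10.38 on RA array 5 (others 10.63 to 10.82), Gadd45a at 7.87 on untreated array 3 (others 7.62 to 7.65), Serpinb2 at 6.56 on RA array 3 (others 5.71 to 6.10) and Klf1 at 6.13 on untreated array 3 (others 6.34 to 6.37). The remaining ones were Ebf1 at 8.43 on untreated array 2 (others 6.29 to 6.65), Cd79b at 10.17 on untreated array 2 (others 7.79 to 8.07), Klrb1c at 4.58 on RA array 6 (others 4.26 to 4.36) and Ppbp at 11.59 on RA array 5 (others 7.75 to 9.52). 

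The test of the difference in RA effect (limma, adjusted over all genes) set 18 named genes apart between Pml wild type and Pml null, with adjusted p from 2.89e-05 to 0.0457. The log2 change was higher in wild type for Vdr (2.44), Nr4a1 (2.33), Cd40lg (1.81), Wee2 (1.5), Vat1 (1.36) and Lurap1l (1.25). It was lower for Tent5c (-2.68), Arg2 (-2.41), Ttyh2 (-2.16), Gfi1b (-1.75), Clec4n (-1.73), Steap4 (-1.65), P2ry13 (-1.26), Serpinb2 (-1.0), Jdp2 (-0.87), Tlr2 (-0.80), Irf1 (-0.65) and Spi1 (-0.61). Between viral wild type and transgenic leukaemias 20 named genes differed, with adjusted p from 8.66e-08 to 0.0499. The change was higher in viral wild type for Vdr (3.17), P2rx7 (2.21), Snai3 (1.92), Ccrl2 (1.87), H60b (1.78), Filip1 (1.65), Tgm2 (1.55) and Id1 (0.99). It was lower for Steap4 (-1.90), Tmem178 (-1.83), Clec4n (-1.71), Arg2 (-1.68), Tgfbi (-1.64), Stfa3 (-1.60), P2ry13 (-1.59), Serpinb2 (-1.34), Ccl6 (-1.17), Tlr2 (-0.70), Pml (-0.65) and Cdkn1c (-0.58).

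Outside the genes tested, 446 of 13767 probe sets without a single gene symbol, or 3.24%, were called in the RA effect, 351 higher and 95 lower with RA.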

How the results depend on the processing

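The RA effect (1969 genes) kept a count within 1.5 times under repeated quantile normalization, a filter on low genes, the mean of probe sets, another prior, fewer arrays and no batch term. It was 394 within batch 3, 1025 within batch 4 and 3683 with array quality weights; leaving out single arrays gave 1300 to 2266. Among the 104 named genes called, 39 kept their call within batch 3 and 70 within batch 4, none reversed under any alternative, and leaving out 1 untreated array lost 13 to 19 calls. Quantile normalization also moved the rises from 57.9% to 46.8% of the calls in the comparison with transgenic leukaemias. The difference from Pml null (71 genes) was called in 3 genes within batch 3, in 7 within batch 4 and in 195 without RA arrays 5 and 6, an alternative chosen after the data were seen; leaving out single arrays gave 32 to 103. The difference from transgenic leukaemias (221 genes) was called in 413 genes on only the 24 arrays of both comparisons and in 86 to 267 without single arrays. The difference between 12 h and 6 h, 0 genes in the full fit, gave 0 to 1 without single arrays, and that between batches 0 to 2. The cause was not tested in any of these. With runs of neighbouring title codes as a block on the 12 arrays, also chosen later, 2590 genes were called; differences between runs in untreated and in RA arrays correlated across genes at 0.113 in batch 3 and -0.314 in batch 4. No paired analysis was possible because the labels give every array the same replicate number; the runs above are a grouping by neighbouring title codes, whose meaning the labels do not give.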
